A study of Rattus norvegicus with 4 samples.

Results

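Apolipoproteins are the protein parts of the particles that carry fat and cholesterol in the blood. *Apob* encodes the scaffold around which the liver builds very low density lipoprotein, *Apoa1* and *Apoa2* encode the main proteins of high density lipoprotein, and the smaller apolipoproteins exchange between particles and set how fast lipases and receptors act on them. The hepatocyte is the main source of most of these proteins, and macrophages also make apolipoprotein E. The 10 genes described here, *Apoa1*, *Apoa2*, *Apoa4*, *Apoa5*, *Apob*, *Apoc1*, *Apoc2*, *Apoc3*, *Apoe* and *Apoh*, were chosen by symbol out of 16982 genes that had a value in all 4 libraries. Earlier results of these data were known when the genes were chosen. All 10 were present, each with a single annotated row per library.

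The libraries came from the liver of wild type male Wistar rats, with 1 rat for each of 4 conditions. The rats inhaled sevoflurane (4.5%) or desflurane (6%), both halogenated inhalational anesthetic agents, for 6 h, and each agent had its own control, a rat killed as soon as it lost consciousness from that agent. The rats were bought at 6 weeks of age, had no food or water for 2 h before the experiment, and were all killed at about the same time of day. A control rat therefore also received the agent briefly, and 6 h of anesthesia cannot be told apart from 6 h longer without food. With 1 library per condition, no difference has a replicate check and no p-value was calculated.

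Expression is given as TPM, a transcript level per length that StringTie scales within a library. The libraries held between 4.47 and 5.40 Gb of aligned sequence, and the average coverage of the 10 genes was between 453 and 13736 reads per base. Following the rule of the study, a gene counted as upregulated or downregulated (called) if it reached more than 2 TPM in one of the libraries compared and the fold difference exceeded 2, and a limit of 1.5-fold was also used. Log2 changes were calculated after adding 1 to the TPM values. Over the 9136 genes that exceeded 2 TPM in each library, the median log2 change was 0.05 for sevoflurane and 0.11 for desflurane, and changes are to be read relative to these medians. The hepatocyte origin of the RNA was clear from *Alb*, with TPM values between 77519 and 92912. The 7 enterocyte markers with a value had a summed TPM between 4.07 and 5.16, of which *Fabp2* gave 2.86 to 4.09 and *Rbp2* 0.33 to 1.21, while *Alpi* and *Mep1a* were listed at 0 in every library.

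Among the 10 genes, *Apoa2* and *Apoa5* stood apart. Both were lower after 6 h of sevoflurane than in the other 3 libraries, and after 6 h of desflurane both were close to their own control, with log2 changes of -0.01 and 0.03. *Apoa5* lies in a cluster of 4 members on chromosome 8 of the rn6 genome, between positions 50525091 and 50561717 (36.6 kb), in the order *Apoa1*, *Apoc3*, *Apoa4*, *Apoa5*. Its nearest neighbor in the cluster, *Apoa4*, ends 19707 bases away and was highest in the library in which *Apoa5* was lowest. The sequences of the 250 bases before the transcription starts of this pair are shown because the pair went in opposite directions with sevoflurane. They are from RefSeq on the GRCr8 build, not the rn6 build of the expression files, and both are on the plus strand, at chr8:55435529-55435778 for *Apoa4* and chr8:55457621-55457870 for the first of the 2 starts listed for *Apoa5*. Capitals mark matches on either strand to TATAAA (the core of a TATA box), AGGTCA (a half-site of nuclear receptors) and CACGTG (an E-box core, which reads the same on both strands); none of the matches overlap.
Apoa4: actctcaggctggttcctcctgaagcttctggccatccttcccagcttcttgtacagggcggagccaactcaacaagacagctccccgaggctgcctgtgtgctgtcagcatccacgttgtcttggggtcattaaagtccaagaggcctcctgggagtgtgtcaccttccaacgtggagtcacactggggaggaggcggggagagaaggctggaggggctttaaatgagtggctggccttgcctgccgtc
Apoa5: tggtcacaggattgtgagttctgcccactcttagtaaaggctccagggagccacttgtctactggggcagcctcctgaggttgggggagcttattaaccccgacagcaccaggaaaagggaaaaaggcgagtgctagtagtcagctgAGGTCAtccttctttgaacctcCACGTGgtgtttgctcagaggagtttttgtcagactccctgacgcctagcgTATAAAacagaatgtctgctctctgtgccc

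The *Apoa5* stretch held all 3 motifs once, with TATAAA at 30 to 25, CACGTG at 81 to 76 and AGGTCA at 103 to 98 bases before the start. The *Apoa4* stretch held none of them. The overlapping stretch before the second start listed for *Apoa5* held no AGGTCA. It held TATAAA at 184 to 179 and CACGTG at 235 to 230 bases before that start. In all 33469 promoter entries of the same length, 12.9% held TATAAA, 14.1% held AGGTCA and 5.59% held CACGTG. Entries were listed for 6 of the 10 genes. Those of *Apoc1*, *Apoe* and *Apoh* also held none of the 3 motifs, and that of *Apoc2* held TATAAA alone. No entry was listed for *Apoa1*, *Apoa2*, *Apob* and *Apoc3*. A match of letters is a description of the sequence and does not show that a factor was bound.

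The 10 genes together accounted for 3.79% of the TPM values of all annotated genes in the control for sevoflurane, 3.57% at 6 h of sevoflurane, 3.45% in the control for desflurane and 3.88% at 6 h of desflurane. *Apoe*, whose product is the ligand by which remnant particles are cleared, was the most abundant member, with TPM values of 8923 in the control for sevoflurane, 8850 at 6 h of sevoflurane, 8143 in the control for desflurane and 9116 at 6 h of desflurane. It ranked between 6 and 9 among all genes and contributed 28.9% to 30.9% of the summed TPM of the family. *Apoc3*, an inhibitor of lipoprotein lipase and of remnant uptake, came second with 5891, 5684, 5492 and 5882 in the same order of libraries. These were the steadiest members, since the highest library exceeded the lowest by 1.07-fold for *Apoc3* and by 1.12-fold for *Apoe*. The TPM values of *Apoe*, *Apoc3* and the next member, *Apoa1*, did not overlap between genes.

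**Figure D1:**
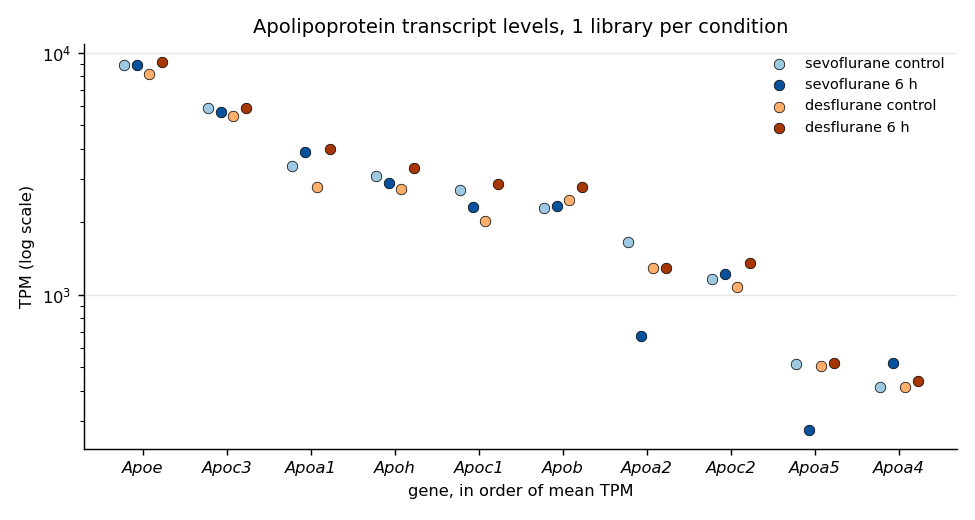
TPM values (log scale) of the 10 apolipoprotein genes, ordered by mean TPM, with 1 point per library. *Apoa2* (674) and *Apoa5* (274) have their lowest points after 6 h of sevoflurane, and the points of *Apoe* and *Apoc3* lie close together.

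*Apoa1*, *Apoh*, *Apoc1* and *Apob* formed a middle group, in which each gene overlapped the next in order over the 4 libraries. *Apoa2* and *Apoc2* followed and overlapped each other, and *Apoa5* and *Apoa4* were lowest and also overlapped, with mean TPM values of 455 and 448. Neither the middle group and *Apoa2* nor *Apoc2* and *Apoa5* overlapped. *Apoa4* was below *Apoa5* in 3 libraries, with a TPM ratio between 0.805 and 0.847, and above it after 6 h of sevoflurane, with a ratio of 1.91.

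The first comparison asked which genes changed during 6 h of sevoflurane. *Apoa2*, a major apolipoprotein of high density lipoprotein, is at positions 89597165 to 89598802 of chromosome 13 on the plus strand. It had TPM values of 1644 in the control for sevoflurane, 674 at 6 h of sevoflurane, 1288 in the control for desflurane and 1282 at 6 h of desflurane. The sevoflurane library was lowest and the other 3 libraries were 1.90-fold to 2.44-fold above it. *Apoa2* was downregulated 2.44-fold relative to its own control (log2 change -1.29) and was the only member of the 10 called at the 2-fold limit. This limit called 3.3% of 9754 genes lower with sevoflurane, and 2.23% higher. Of the 915 genes with a mean TPM higher than 100, it called 1.86% lower. In the latter set, 9 genes had a log2 change as low as that of *Apoa2* or lower, with *Apoa2* included. Relative to the desflurane control, *Apoa2* was 1.91-fold lower, which is short of the limit, and the controls themselves differed by 1.28-fold. With that control, 2.59% of genes were called lower and 2.52% higher at 2-fold, and 7.27% and 8.64% at 1.5-fold, where *Apoa2* and *Apoa5* were the members called.

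*Apoa5*, whose product promotes the lipolysis of triglyceride-rich particles, is at positions 50559079 to 50561717 of chromosome 8 on the plus strand. Its TPM values were 517 in the control for sevoflurane, 274 at 6 h of sevoflurane, 509 in the control for desflurane and 519 at 6 h of desflurane. The 2 controls and the desflurane library were nearly equal, and the sevoflurane library alone was low. The difference from its own control was 1.88-fold (log2 change -0.91), and it was 1.85-fold with the control of the other agent. *Apoa5* thus missed the 2-fold limit with both controls. At the 1.5-fold limit it was called together with *Apoa2*, and this limit called 5.9% of the 915 abundant genes and 8.08% of all 9754 genes lower with sevoflurane, and 8.03% of all genes higher. The difference between the controls was -0.02 on the log2 scale for *Apoa5*.

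The other 8 members differed little from the sevoflurane control. *Apoa4*, a protein of chylomicrons and high density lipoprotein, had TPM values of 416 in the control for sevoflurane, 523 at 6 h of sevoflurane, 413 in the control for desflurane and 439 at 6 h of desflurane. It was highest after sevoflurane, by 1.26-fold with either control. The log2 changes of *Apoa1*, *Apob*, *Apoc1*, *Apoc2*, *Apoc3*, *Apoe* and *Apoh* with sevoflurane were between -0.22 (*Apoc1*) and 0.19 (*Apoa1*). The median over the 10 genes was -0.03, with 4 members higher and 6 lower, and 7 of the 10 were below the median of all genes. Among the 915 abundant genes, the median absolute log2 change was 0.20, and 4 of the 10 members exceeded it. With the desflurane control, 7 members were higher and 3 were lower. These 3 were *Apoa2*, *Apoa5* and *Apob*.

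**Figure D2:**
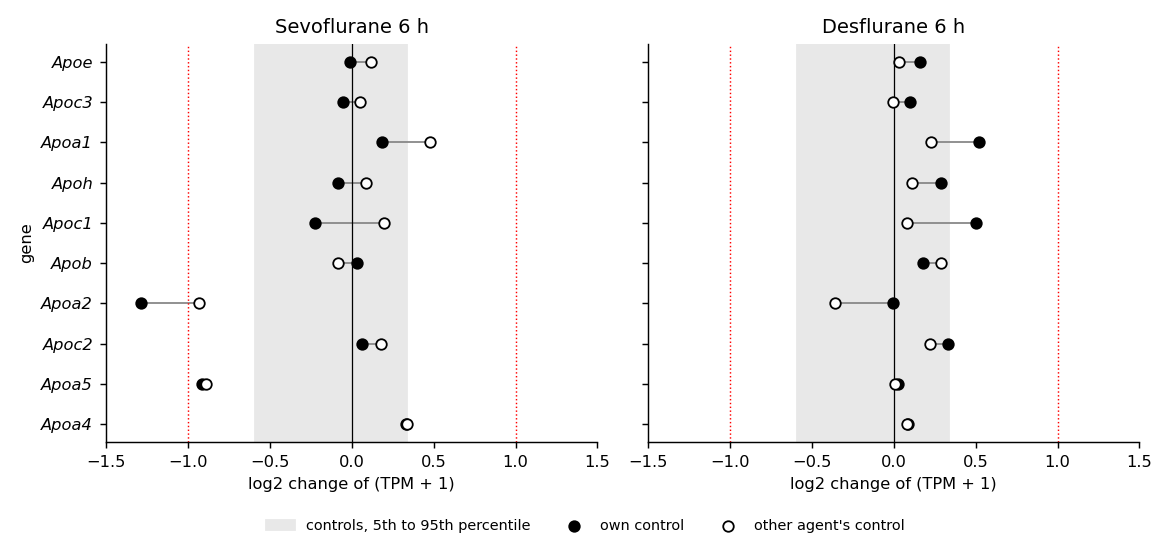
Log2 changes of the 10 genes after 6 h of each agent, relative to the own control (filled) and the control of the other agent (open). Grey marks the 5th to 95th percentile of the difference between the controls over the 915 genes with a mean TPM higher than 100, and dotted lines mark 2-fold. *Apoa2* and *Apoa5* lie to the left of the grey area with sevoflurane for both controls.

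In whole liver, fewer cells of a type and less RNA per cell cannot be told apart. Macrophage markers were lower in the sevoflurane library as well. All 11 macrophage markers with a value were lower than in the own control, 4 of them (*Marco*, *Adgre1*, *Csf1r* and *Cd5l*) passed the 2-fold limit that called 3.3% of all genes lower, 2 passed it with the desflurane control, and their summed TPM was 809 in the control for sevoflurane, 485 at 6 h of sevoflurane, 641 in the control for desflurane and 757 at 6 h of desflurane. All 11 exceeded 2 TPM in at least 1 library, and *Clec4f*, a Kupffer cell gene, was between 76.5 and 123. *Apoe*, which macrophages also express, was 0.992-fold of its own control after sevoflurane. Hepatocyte plasma proteins other than apolipoproteins were lower by a small amount, with a median log2 change of -0.11, 18 of 20 genes lower and no gene called. The part of these differences in the values of *Apoa2* and *Apoa5* was not tested.

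The sevoflurane control also held transcripts of pancreatic acinar cells. The summed TPM of 11 acinar markers was 69.1 in this library and between 17.3 and 19.2 in the other 3, in which *Prss1*, *Prss3*, *Ctrb1* and *Pnlip* were at 0. Their part in the results was not tested.

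Ratios within a library do not depend on how libraries are scaled to each other. The TPM ratio of *Apoa1* to *Apoa2* was 2.07 in the control for sevoflurane, 5.76 at 6 h of sevoflurane, 2.16 in the control for desflurane and 3.11 at 6 h of desflurane. In these annotated rows, the ratio was nearly equal in the 2 controls and higher in both 6 h libraries, with sevoflurane above desflurane. Relative to the own controls, *Apoa1* was higher with desflurane, whereas *Apoa2* was lower with sevoflurane. Relative to the sevoflurane control, the log2 changes with desflurane were 0.23 for *Apoa1* and -0.36 for *Apoa2*. In the assembled rows (a second row that StringTie gives for the gene), the controls differed by 1.69-fold in *Apoa2*. There, *Apoa2* was 1.30-fold higher after desflurane than in its own control. *Apoa2* also fell against *Alb*, the most abundant hepatocyte transcript, by 1.21 on the log2 scale with sevoflurane and by 0.27 with desflurane. The corresponding values of *Apoa5* to *Alb* were -0.84 and -0.23. *Apoh*, which encodes a phospholipid-binding plasma protein, followed *Alb* most closely of the 10, with log2 differences of -0.01 and 0.03.

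The share of the family held by single members shifted accordingly. *Apoa2* made up 5.48% of the summed TPM of the family in the control for sevoflurane, 2.35% at 6 h of sevoflurane, 4.79% in the control for desflurane and 4.07% at 6 h of desflurane. *Apoa5* made up 0.958% after sevoflurane and between 1.64% and 1.89% in the other libraries.

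The second comparison asked the same of desflurane. No member was called in either direction at the 2-fold or the 1.5-fold limit with either control. With the own control, the 2-fold limit called 2.79% of 9855 genes higher and 1.48% lower, and the 1.5-fold limit called 10.4% and 4.25%. With the sevoflurane control, these shares were 2.84% and 1.58% at 2-fold and 9.67% and 4.5% at 1.5-fold. For a set of 10 genes these shares are small, so the lack of calls does not set the members apart. The members leaned upward, with 9 of the 10 higher and a median log2 change of 0.17, but the median of all genes was 0.11, and 6 members were above it and 4 below.

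*Apoa1*, the structural protein of high density lipoprotein and the activator of lecithin cholesterol acyltransferase, had the largest difference of the 10 from the desflurane control after desflurane. Relative to the sevoflurane control, *Apoa2* (log2 change -0.36) and *Apob* (0.29) differed more. Its TPM values were 3407 in the control for sevoflurane, 3880 at 6 h of sevoflurane, 2781 in the control for desflurane and 3992 at 6 h of desflurane. The 2 libraries of 6 h lay above both controls. *Apoa1* was 1.44-fold higher after desflurane than in its own control and 1.17-fold higher than in the sevoflurane control, and the controls differed by 1.23-fold. With sevoflurane, the log2 changes were 0.19 with its own and 0.48 with the other control.

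*Apoc1*, an inhibitor of lipase and of receptor-mediated uptake, had TPM values of 2699 in the control for sevoflurane, 2311 at 6 h of sevoflurane, 2012 in the control for desflurane and 2852 at 6 h of desflurane. The desflurane control was the lowest of the 4 libraries, and the other control and the desflurane library were close to each other. *Apoc1* was 1.42-fold higher after desflurane than in its own control, but the difference was 1.06-fold with the sevoflurane control, and the controls differed by 1.34-fold. Its direction with sevoflurane was reversed by the choice of control, with log2 changes of -0.22 and 0.20. The choice of control reversed the direction with sevoflurane of *Apob*, *Apoc3*, *Apoe* and *Apoh* as well, with log2 changes no larger than 0.12 for either control, and with desflurane it reversed that of *Apoc3*.

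*Apoc2*, the activator of lipoprotein lipase, had TPM values of 1159 in the control for sevoflurane, 1211 at 6 h of sevoflurane, 1071 in the control for desflurane and 1350 at 6 h of desflurane. Both 6 h libraries were above both controls, with log2 changes of 0.06 and 0.33 relative to the own controls. *Apob* had 2270, 2319, 2452 and 2771 in the same order, and *Apoh* had 3078, 2904, 2728 and 3333. The desflurane library was highest for all 3 genes. The log2 changes with desflurane were 0.18 for *Apob* and 0.29 for *Apoh*, and 0.10 for *Apoc3* and 0.16 for *Apoe*.

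**Figure D3:**
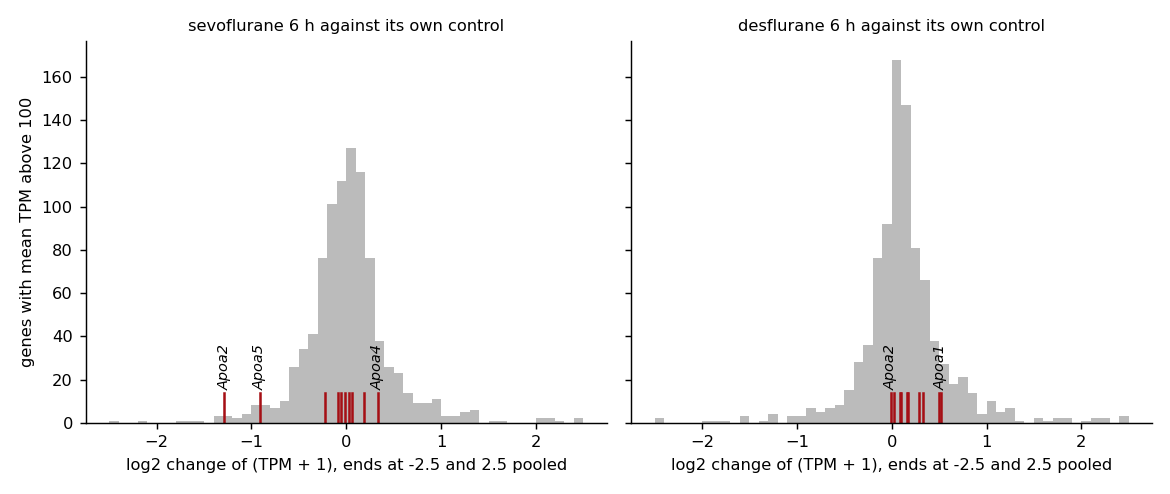
Histograms of the log2 changes of the 915 genes with a mean TPM higher than 100 with each agent, with red ticks at the 10 apolipoproteins and the outermost values pooled in the end bars. With sevoflurane, *Apoa2* (-1.29) and *Apoa5* (-0.91) lie in the lower tail, and with desflurane all 10 lie between -0.01 and 0.52.

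The controls were compared because they are the only pair of livers without 6 h of anesthesia. Of the 10 members, 9 were lower in the control for desflurane than in that for sevoflurane, with a median log2 difference of -0.12, compared with -0.03 over all genes and -0.05 over the abundant genes. No member differed by 1.5-fold in the TPM of the annotated rows, a limit that called 4.12% of all genes lower and 3.82% higher in the desflurane control. Other measures of the same reads passed this limit, with a log2 difference of -0.76 for *Apoa2* in the assembled rows (a second row that StringTie gives for the gene) and of -0.60 for *Apoc1* in FPKM. In FPKM, the median of all genes was itself -0.17, and all 10 members were lower. No share of all genes called is given for these measures. In the TPM of the annotated rows, the largest differences were those of *Apoc1* (-0.42), *Apoa2* (-0.35) and *Apoa1* (-0.29). *Apob* was the exception and was 0.11 higher. The lower level of 9 members in the desflurane control and the higher level of 9 members with desflurane share this library.

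The livers of 6 h were also compared with each other, a comparison that uses neither control. *Apoa2* was 1.90-fold and *Apoa5* 1.89-fold higher after desflurane than after sevoflurane, and both passed the 1.5-fold limit, which called 8.98% of all genes higher and 4.0% lower after desflurane, and 4.7% of the abundant genes higher. In the abundant set, 12 and 14 genes had a difference as high as these or higher. *Apoa4* was the only member with a lower TPM after desflurane (log2 difference -0.25). The remaining 7 members were between 0.04 and 0.30 on the log2 scale. The median of all genes was 0.05, and 6 of the members were above it and 4 below.

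StringTie also listed a second row for each member, assembled from the reads without a gene name. These assembled rows overlap the annotated ones on the same strand and use the same reads, and they were examined because the 2 rows can differ in their ends. Of the 40 member values, 26 differed by at most 1% between the assembled and the annotated row. *Apoa1*, *Apob*, *Apoc1*, *Apoc3*, *Apoe* and *Apoh* were within this limit in every library. The assembled rows of *Apoa2* began 271, 284, 501 and 275 bases before the annotated start in the control and the 6 h library of sevoflurane and then of desflurane. Their TPM values were 1456, 588, 861 and 1122. The desflurane control, with the longest extension, had the lowest ratio of assembled to annotated TPM (0.668, compared with 0.872 to 0.886 in the others). In the assembled rows, *Apoa2* remained 2.48-fold lower after sevoflurane than in its own control, but only 1.46-fold lower than in the desflurane control, and it was 1.30-fold higher after desflurane than in its own control. *Apoa5*, with assembled TPM values of 447, 229, 450 and 449, was 1.95-fold and 1.96-fold lower after sevoflurane than in the own and the other control.

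**Figure D4:**
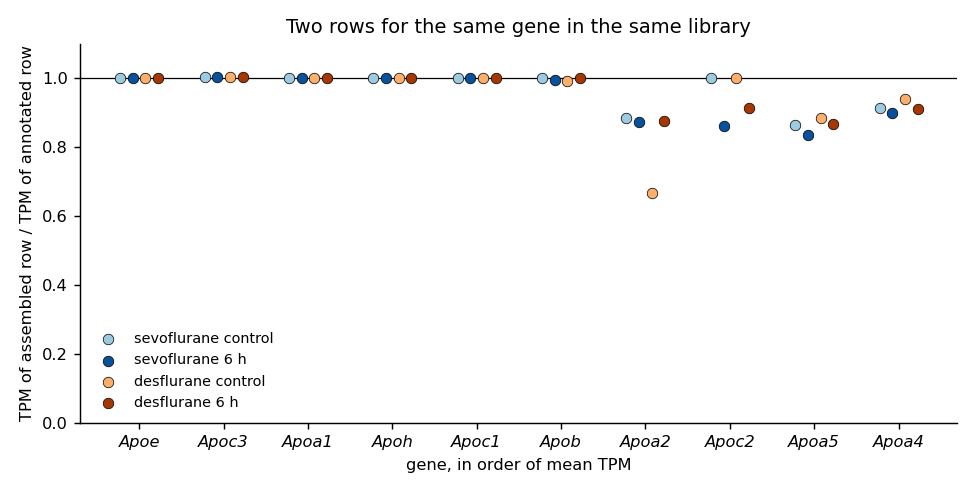
Ratio of the TPM of the assembled row to that of the annotated row for the 10 genes, with 1 point per library. Most points are at 1, *Apoa2* is at 0.668 in the desflurane control, and *Apoc2* is below 1 only in the 2 libraries of 6 h.

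*Apoc2* is in a cluster on chromosome 1, at positions 80589023 to 80616820 on the minus strand, with *Apoc1* and *Apoe*. In both controls, the assembled row of *Apoc2* had the ends of the annotated gene, and *Apoc4*, its neighbor upstream on the same strand, had a row of its own. After 6 h of either agent, a single assembled row covered both genes and reached 5813 bases (sevoflurane) or 5699 bases (desflurane) beyond the start of *Apoc2*. The TPM values of *Apoc4* in the annotated rows were 298 and 271 in the controls of sevoflurane and desflurane, and 315 and 366 after 6 h of the respective agent. The number of reads that join the 2 genes is not given by the files.

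The genes with the most similar pattern over the 4 libraries were named by the root mean square difference of centered log2 TPM values, for the 3 members with the widest range. *Apoa2* was most similar to *Sipa1* (0.04), *Rgs18* (0.04) and *Adgre1* (0.06), the last of which is one of the macrophage markers. The TPM values of *Sipa1* were 13.4 in the control for sevoflurane, 5.81 at 6 h of sevoflurane, 10.6 in the control for desflurane and 11.1 at 6 h of desflurane. *Apoa5* was most similar to *Cyp51* (0.03), a cholesterol synthesis enzyme with TPM values of 152, 85.2, 153 and 154 in the same order, and then to *Slc11a1* and *Adgre4* (0.04 and 0.05). *Apoa1* was most similar to *Bzw2*, *Akap17a* and *Letmd1*, with differences of 0.01 each. With 4 libraries and 9136 genes, close matches are a description only.

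Other genes of lipoprotein metabolism were followed as lists. Of 12 other apolipoproteins with a value, none was called with either agent relative to the own control. Over all genes, 2.23% were called higher and 3.3% lower with sevoflurane, and 2.79% and 1.48% with desflurane. *Clu*, the most abundant of the 12, had TPM values of 696, 599, 522 and 711 in the control and the 6 h library of sevoflurane and then of desflurane. *Apol9a* and *Apol3* had the lowest log2 changes with sevoflurane (-0.93 and -0.79) and were lower with desflurane too (-0.44 and -0.60). *Apof* had the highest with desflurane (0.78), but it was 1.04-fold of the sevoflurane control. With that control, *Apol9a* was called lower after desflurane (0.488-fold), as were 1.58% of all genes.

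Among 19 genes of particle assembly, none was called with sevoflurane and 1 was higher with desflurane relative to the own control, a direction in which 2.79% of all genes were called. With the desflurane control, sevoflurane had 1 call higher (*Sar1b*, a small GTPase of export from the endoplasmic reticulum, 2.24-fold) and 1 lower (*Apobec1*), with 2.52% and 2.59% of all genes called. The gene called with desflurane was *Plin2*, which coats lipid droplets, with TPM values of 107 in the control for sevoflurane, 208 at 6 h of sevoflurane, 134 in the control for desflurane and 276 at 6 h of desflurane. Both 6 h libraries were above both controls, by 1.94-fold and 2.07-fold relative to the own controls. *P4hb*, which encodes a subunit of the microsomal triglyceride transfer protein, was 1.05-fold and 1.13-fold of its own control with sevoflurane and desflurane. *Apobec1*, the enzyme that edits the *Apob* transcript, had TPM values of 7.88, 4.30, 11.3 and 11.1, with the sevoflurane library lowest, at 0.545-fold of its own control and 0.379-fold of the other. Editing itself cannot be read from these files.

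Of 13 genes of plasma remodelling, desflurane upregulated 1 and downregulated 1, and sevoflurane changed none at the 2-fold limit relative to the own control. Over all genes, desflurane called 2.79% higher and 1.48% lower. With the sevoflurane control, desflurane had 2 genes called higher, *Angptl4* and *Lpl* (2.39-fold), the gene of lipoprotein lipase, and none lower, with 2.84% and 1.58% of all genes called. *Angptl4* and *Angptl8* encode inhibitors of lipoprotein lipase, the first known to be induced by fasting and the second by feeding. *Angptl4* had TPM values of 23.3 in the control for sevoflurane, 34.4 at 6 h of sevoflurane, 26.7 in the control for desflurane and 71.7 at 6 h of desflurane, and *Angptl8* had 61.1, 78.8, 114 and 39.0. The 2 genes went in opposite directions with desflurane, 2.68-fold up and 2.91-fold down. With the sevoflurane control, *Angptl4* was 3.08-fold higher after desflurane, and the desflurane level of *Angptl8* was 0.639-fold. *Lcat* was 0.931-fold and *Pon1*, a protein of high density lipoprotein, 0.803-fold of the own control with sevoflurane.

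Of 14 genes of uptake and clearance, *Vldlr* was called upregulated by sevoflurane, as were 2.23% of all genes, at low levels (1.15 to 3.07 TPM) and with 1.63-fold when the other control was used. No gene of this list was called with desflurane.

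**Figure D5:**
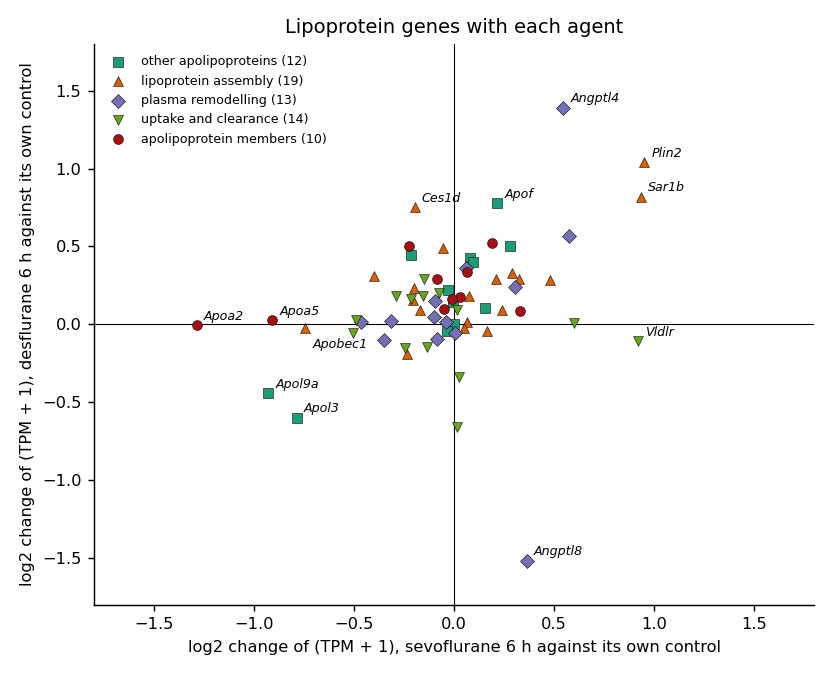
Log2 changes with sevoflurane (horizontal) and desflurane (vertical), each relative to the own control, for the 10 apolipoproteins and 4 lists of related genes. *Apoa2* and *Apoa5* lie at the left near the horizontal axis, and *Angptl4* and *Angptl8* lie at the top and the bottom.

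Among 28 transcriptional regulators, sevoflurane downregulated 3 (*Foxa2*, *Pparg* and *Nr0b2*) and desflurane downregulated 2 (*Pparg* and *Srebf1*) and upregulated *Ppargc1a*, relative to the own controls. Over all genes, 3.3% were called lower with sevoflurane, and 1.48% lower and 2.79% higher with desflurane. Relative to the opposite control, the calls were *Foxa2* and *Srebf1*, both lower, with sevoflurane, and *Pparg*, lower, and *Ppargc1a*, higher, with desflurane, so that *Srebf1* lost its call with desflurane. With that choice of control, 2.59% of all genes were called lower with sevoflurane, and 1.58% lower and 2.84% higher with desflurane. *Hnf4a*, a nuclear receptor that is required for the hepatic expression of many apolipoproteins, was not called, with TPM values of 246 in the control for sevoflurane, 226 at 6 h of sevoflurane, 199 in the control for desflurane and 216 at 6 h of desflurane. *Creb3l3*, an activator of *Apoa4* and *Apoa5*, had 318, 378, 247 and 423, with both 6 h libraries above both controls. *Foxa2* had 30.5, 12.7, 44.5 and 22.9, and was 2.41-fold and 1.95-fold lower with sevoflurane and desflurane. The call of *Nr0b2* did not hold with the desflurane control, in which its TPM value was 16.6, compared with 43.8 in the sevoflurane control and 18.3 after sevoflurane.

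Genes that fasting induces were followed because food was absent for longer in the 6 h livers. Of 13 such genes, sevoflurane upregulated 4 and desflurane upregulated 8 relative to the own control, and none was downregulated, compared with 2.23% and 2.79% of all genes called higher. With the other control, sevoflurane upregulated 6 and downregulated 1, and desflurane upregulated 6, with 2.52% and 2.84% of all genes called higher. *Pck1*, a gluconeogenic enzyme, was 1079 in the control for sevoflurane, 980 at 6 h of sevoflurane, 414 in the control for desflurane and 951 at 6 h of desflurane. The controls thus differed in this gene more than either 6 h library differed from the sevoflurane control. Of 12 genes that feeding induces, sevoflurane downregulated 1 and desflurane 4 relative to the own control. Over all genes, 3.3% and 1.48% were called lower. With the other control, sevoflurane downregulated 4 and desflurane 1, with 2.59% and 1.58% of all genes called lower. The median log2 difference of the desflurane control from the sevoflurane control was -0.30 for the fasting genes and 0.39 for the feeding genes. The part of fasting in the values of the apolipoproteins was not tested.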

How the data were processed

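RNA from 1 rat liver per condition was sequenced as paired-end reads from total RNA. The authors trimmed the reads with sickle, mapped them to rn6 with HISAT2, sorted them with SAMtools and ran StringTie guided by refGene models of that build. Each deposited table holds average coverage, a signal that is not scaled for library size, FPKM, and TPM. The TPM signal in the deposited tables was scaled by StringTie so that the assembled rows sum to 1000000, and the annotated rows (779824 to 813454 in sum) are on the same scale. The FPKM values were normalized by the authors within each library.

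Annotated rows longer than 200 bp were used, and TPM values were summed per gene ID. Genes were required in all 4 tables. Conditions were taken from the labels. No test was made, since each condition has 1 library. The aligned bases of a library are its median ratio of coverage to FPKM. Read counts are not given in the files used here, so counting intervals were not calculated, and precision beyond the coverage is unknown. The members and gene lists were chosen with earlier results of these data known. Genes outside the 10 were named when they were among the 3 most abundant of their list, called, or the extreme of the list, or among the 3 genes nearest in pattern to the 3 members of widest range. *Apoc4*, *Sar1b*, *Alpi* and *Mep1a*, outside this rule, were named after their values were seen. Scaling and calling were tested on simulated data with large planted changes and little noise. The simulated calls were made after median-of-ratios scaling, which the main calls did not use. They are therefore no check of the calls reported here. Alternatives covered control, scaling, unit, pseudocount, rows, length filter, fold limit and TPM limit. The assembled rows and depth-scaled coverage were added after seeing the data. Python 3.11.15, numpy 2.4.6, pandas 2.3.3 and matplotlib 3.10.9 were used.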

Additional observations from a re-analysis of the deposited data

Results flagged for a closer look

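The log2 change, read against 0, had opposite signs with sevoflurane and desflurane, relative to the own controls, in 5 members. The change with desflurane minus that with sevoflurane was 0.94 for *Apoa5*, 0.73 for *Apoc1*, 0.37 for *Apoh*, 0.17 for *Apoe* and 0.15 for *Apoc3*. These differences were not tested, since each condition has 1 library. The signs depend on the reference. Relative to the median of all genes, *Apoa5* (-0.96 with sevoflurane and -0.08 with desflurane) and *Apoc3* (-0.10 and -0.01) were lower with both agents. *Apoa4* (0.28 and -0.03) and *Apob* (-0.02 and 0.06) then had opposite signs. For *Apoc1*, *Apoc3*, *Apoe* and *Apoh*, the direction with sevoflurane was the opposite with the desflurane control.

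In the assembled rows, which the main comparisons did not use, the row of *Apoc2* ran over *Apoc4* in both 6 h libraries, and not in the controls. It extended 5813 bases beyond the annotated start of *Apoc2* after sevoflurane and 5699 bases after desflurane.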

How the results depend on the processing

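A value was counted as moved when it differed from the main one by at least 0.12 on the log2 scale, the median absolute difference between the controls over abundant genes. Of 400 member values under alternatives, 80 moved. The settings with the highest row, no length filter and a pseudocount of 0 gave 40 of these values each, and 0 moved. Each member has a single row above the length limit and a high TPM, so these settings could hardly move a value and are no check. For *Apoa2* and *Apoa5* with sevoflurane, the log2 change was below 0 under each alternative that changed 1 choice, between -1.34 and -0.93 for *Apoa2* and between -0.96 and -0.89 for *Apoa5*. With assembled rows and the desflurane control together, it was -0.55 and -0.97. The call of *Apoa2* was lost only with the control of the other agent, where the count of calls was 0; the 1.5-fold limit gave 2. Use of that control moved the sevoflurane median to 0.11. The median with desflurane moved to 0.0429 with median-of-ratios scaling and to 0.0373 when rescaled without the 100 most abundant genes, and these settings shifted the median of all genes by -0.12 each. With FPKM, the median moved to -0.30 between the controls and to -0.0253 between the 6 h libraries. Coverage divided by aligned bases also gave -0.30 and -0.0253. Aligned bases were calculated from coverage and FPKM, so this setting repeats FPKM and is no separate check. Each of the 2 settings moved 20 of 40 member values. FPKM shifted the median of all genes by -0.14 between the controls and by -0.17 between the 6 h libraries. Members above that median numbered 1 with FPKM and 3 with TPM between the controls, and 6 with both between the 6 h libraries. In the assembled rows, the log2 ratio of *Apoa1* to *Apoa2* moved from 1.05 to 1.23, 2.53 to 2.72, 1.11 to 1.69 and 1.64 to 1.83, in the order of libraries used above. The cause was not tested. No paired analysis was possible because the comparison within an agent has 1 library on each side, and for the same reason none could be left out. A fit of time over both agents, which would take the agents as replicates of each other, was not run.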
